A study of Mus musculus with 8 samples.

Results

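The genes described here are 37 targets and components of the endoplasmic reticulum (ER) stress and ATF4 pathways. They were taken as a fixed list of symbols out of 18193 genes named on the array, each read by its probe set with the highest mean over 8 arrays. All 37 were found, 28 of them with more than 1 probe set, and all 37 passed the filter on low signals in both cell types. The study measured gene expression in mouse stem cells with and without Zfx, an X-linked zinc finger transcription factor, on Affymetrix Mouse Genome 430 2.0 arrays.

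There were 4 groups of 2 arrays. The ESC were embryonic stem cell clones kept on gelatin, without feeder cells, in medium with serum replacement and the cytokine LIF, and their Zfx was either loxP-flanked (Zfx-flox) or deleted (Zfx-null). The HSC had been flow-sorted from marrow as Lin- Sca-1+ c-Kit+ cells, which include hematopoietic stem cells and multipotent progenitors. Their donors were male mice with 1 loxP-flanked Zfx allele (Zfx flox/y), either Mx1-Cre+ (Zfx-cko) or Cre- littermates (Zfx-flox), and marrow from 4 to 6 mice was pooled. Both HSC groups were collected 4 days after the last injection of pI·C, an RNA mimic whose interferon response switches on Mx1-Cre. Cre was therefore a feature of the Zfx-cko donors alone, and no age or strain of the mice was stated in the labels. ESC RNA had 1 round of amplification and HSC RNA had 2, so levels of the 2 cell types are set side by side without a test. The samples were hybridized in duplicate, so arrays of a group may share 1 RNA, and the p-values then reflect array-to-array spread alone, which can be technical.

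Proteins that fail to fold in the ER activate 3 sensors, IRE1 (gene Ern1), PERK (Eif2ak3) and ATF6. IRE1 splices Xbp1 mRNA, and XBP1 and ATF6 drive genes of chaperones and of ER-associated degradation, many of them through an ER stress element in the promoter. PERK phosphorylates the initiation factor eIF2, as do other kinases of the integrated stress response, which lowers general translation but raises translation of ATF4. ATF4 and its C/EBP partners act on C/EBP-ATF elements of genes for amino acid synthesis, one-carbon metabolism, feedback and cell death. The arrays read total mRNA, not spliced Xbp1, protein or phosphorylation.

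Promoter sequences were set beside the members because these 2 elements are known from the chaperone and the ATF4 branch. RefSeq windows (assembly GRCm38.p6) of 300 bases, from 250 before to 50 after a transcript start, were matched for 35 of the 37 members; Atf6 and Manf were not matched. The table holds 32851 windows for 27025 genes, 3 members had more than 1 window, and a gene was counted where any window held the motif. The windows of Mthfd2 and Edem1 belong to starts that lie 8407 and 4596 bases inside the gene. The ER stress element, CCAAT and CCACG with 9 bases of any kind between them on either strand, was found in 8 members (22.9%) and in 0.137% of 27025 genes. The lines show it with 12 flanking bases, the CCAAT and CCACG boxes in capitals, first for the 4 genes called lower in Zfx-cko HSC and then for a pair that did not pass the test. Among the 4, the probe sets of Hspa5 do not share a direction, nor do those of Pdia6. Where the element lies on the other strand it reads CGTGG, 9 bases, ATTGG.
Hspa5 (chr2:34772013-34772055, plus strand): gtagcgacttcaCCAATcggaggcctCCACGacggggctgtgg
Canx (chr11:50325788-50325830, minus strand): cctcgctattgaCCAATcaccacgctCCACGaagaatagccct
Pdia6 (chr12:17266479-17266521, plus strand): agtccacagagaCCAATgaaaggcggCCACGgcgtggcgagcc
Syvn1 (chr19:6046520-6046562, plus strand): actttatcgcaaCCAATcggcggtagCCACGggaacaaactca
Calr (chr8:84847063-84847105, minus strand): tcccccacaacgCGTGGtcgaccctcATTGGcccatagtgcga
Creld2 (chr15:88819508-88819550, plus strand): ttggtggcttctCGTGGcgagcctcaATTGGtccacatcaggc

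The C/EBP-ATF element TGATGNAA, searched on both strands, was found in 6 members (17.1%) and in 4.51% of genes. Its subset TGATGCAA was found in 4 members (11.4%) and in 1.03% of genes. That of Vldlr lies before a second transcript start, 340 bases after the gene start, and the window of the first start holds none. The lines show it in capitals for Nupr1 and Asns, which changed in HSC, and for Chac1, which did not pass the test. In the first and last line the element is read on the other strand and appears as TTGCATCA.
Nupr1 (chr7:126625561-126625592, minus strand): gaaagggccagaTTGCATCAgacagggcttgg
Asns (chr6:7693213-7693244, minus strand): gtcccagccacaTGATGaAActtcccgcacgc
Chac1 (chr2:119351037-119351068, plus strand): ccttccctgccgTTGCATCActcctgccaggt

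**Figure D1:**
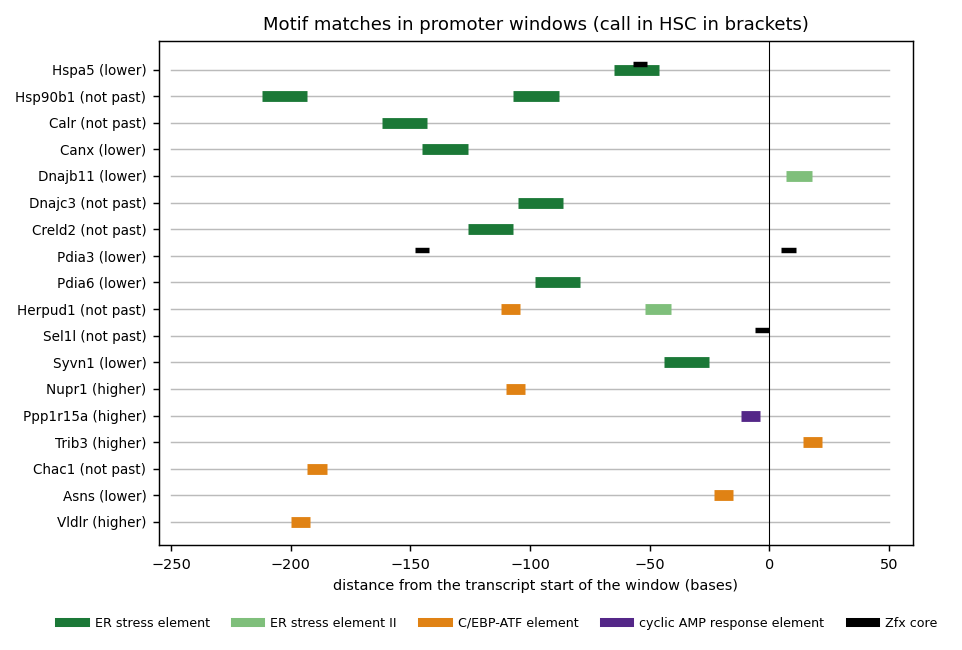
Matches to 5 motifs in the promoter windows of the 18 members that hold any, by distance from the transcript start of the window in bases (x axis); the bracket gives the call in HSC. The ER stress elements of the 8 members that hold one lie before the start, and the C/EBP-ATF elements belong to Herpud1, Nupr1, Trib3, Chac1, Asns and Vldlr.

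A second ER stress element, ATTGG and CCACG with 1 base between them, was found in Dnajb11 and Herpud1, 5.71% of members and 0.0444% of genes. Herpud1 also held TGATGCAA. The cyclic AMP response element TGACGTCA was found in Ppp1r15a alone, 2.86% of members and 2.03% of genes. The core TGACGTGG, read by ATF6 and XBP1, was found in 0 members and in 0.714% of genes. The core of the Zfx motif, AGGCCT, was found in Hspa5, Pdia3 and Sel1l, 8.57% of members against 11.6% of genes, and in Hspa5 it lies within the 9 bases between the boxes of the ER stress element. A match describes the letters in the window, and binding was not measured.

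Pairs of arrays within a group had r = 0.980 to 0.987 over probe sets on the log2 scale, against 0.963 to 0.971 between the groups of a cell type. The pseudocount of 14.2 was exceeded by 69.4% to 78.9% of probe sets per array. All 4 probe sets annotated to Zfx alone were higher in ESC Zfx-null, by 0.79 to 1.65 on the log2 scale (adjusted p = 0.000411 to 0.00294 over probe sets). In HSC 1 rose (0.72), 2 did not pass (-0.49 and 0.05) and 1 was too dim to test. The one with the highest mean gave 262 and 318 for Zfx-flox against 477 and 547 for Zfx-null, and in HSC 696 and 752 for Zfx-flox against 1192 and 1209 for Zfx-cko. No label places them relative to the deleted part, so they do not check the deletion, and the group names are those of the labels throughout. The summed signal of 7 ESC markers was 31744 to 33328 in ESC Zfx-flox and 19922 to 20947 in ESC Zfx-null, with 5 of 7 lower, and 109 to 119 in HSC, where Dppa5a alone lay above the pseudocount on both arrays of a group (Zfp42 did on 1 array). The summed signal of 6 hematopoietic stem and progenitor markers was 4074 to 4324 in HSC Zfx-flox and 13010.2 to 13374 in HSC Zfx-cko, with 5 of 6 higher.

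In ESC labelled Zfx-null, 4 of the 37 genes rose and 4 fell against Zfx-flox, and 29 did not pass the test. Over all 12676 genes tested 15.7% rose and 14.9% fell, together 30.6% (limma, adjusted p under 0.05). The stress-induced chromatin protein Nupr1 rose most, followed by the sensor Atf6, the degradation adaptor Sel1l and the co-chaperone Dnajb9. The serine hydroxymethyltransferase Shmt2, the transcription factors Cebpg and Xbp1 and the asparagine synthetase Asns fell. The 8 calls are 21.6% of the members, under that share, and the members' median log2 change was -0.05 beside -0.03 over all genes. Arrays of the groups did not overlap for 22 members, 8 higher and 14 lower (21.6% and 37.8% of members), beside 30.1% and 34.3% of all genes and 64.5% in either direction. Without a variance trend in the model, Dnajb9, Sel1l, Xbp1 and Asns did not pass (adjusted p = 0.0546 to 0.192).

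In HSC labelled Zfx-cko, 10 of the 37 genes rose, 10 fell and 17 did not pass the test. Over all 12533 genes tested 22.6% rose and 19.8% fell, together 42.4%. Those that rose were the sensors Ern1 and Atf6, the transcription factors Xbp1, Atf4, Atf5 and Nupr1, the feedback genes Ppp1r15a and Trib3, the co-chaperone Dnajb9 and the lipoprotein receptor Vldlr. Those that fell were 6 chaperones and folding enzymes (Hspa5, Canx, Dnajb11, Manf, Pdia3 and Pdia6), the ubiquitin ligase Syvn1 and the enzymes Asns, Phgdh and Shmt2. The 20 calls are 54.1% of the members beside that 42.4%, and the members' median log2 change was -0.01 beside 0.03 over all genes. Arrays of the groups did not overlap for 31 members, 15 higher and 16 lower (40.5% and 43.2% of members), beside 39% and 33.4% of all genes and 72.4% in either direction. Without HSC Zfx-flox replicate 2, 6 genes fell in place of 10. Without a variance trend in the model 8 rose and 4 fell, beside 2349 and 1807 of all 12533 genes. Then Atf4, Dnajb11, Hspa5, Manf, Pdia6, Phgdh, Syvn1 and Xbp1 did not pass (adjusted p = 0.0504 to 0.141).

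Other measures moved with the HSC groups. The log2 ratio of the 5′ over the 3′ Gapdh control probe sets, a sign of RNA length, was -4.18 and -4.25 on the HSC Zfx-flox arrays and -4.68 and -4.39 on the HSC Zfx-cko arrays, against 0.38 to 0.44 in ESC. In HSC the summed signal of 5 plasma and B cell markers was 4177 to 4196 in Zfx-flox and 6602 to 6755 in Zfx-cko. Of 4 tested 2 rose, among them Jchain, which gave most of the sum (means 3969 and 6421). Prdm1 (0.41) and Pax5 (-0.54) did not pass, and Cd79a lay near the pseudocount. The sum of 4 T and NK cell markers was 1223 to 1253 and 2896 to 3092. Nkg7 gave most of it (means 1126 and 2884) and was the 1 of 2 tested that rose. Cd8a did not pass (-0.04), and Cd3e and Cd3d lay below the pseudocount. The sum of 6 macrophage and granulocyte markers was 9638 to 9855 and 12035 to 12760. Mpo gave most of it (means 8218 and 10166) but did not pass (0.31, adjusted p = 0.299), and of 5 tested only Lyz2 rose. Csf1r (0.27), Elane (-0.43) and Adgre1 (-0.14) did not pass either, and Itgam lay below the pseudocount. Of 3 erythroid and megakaryocyte markers Pf4 and Itga2b rose and Klf1 fell, and the sums were 3029 and 4048 to 4079. The part of these differences in the results was not tested, and in bulk RNA fewer cells of a type and less RNA per cell cannot be told apart.

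In ESC, the summed signal of 6 fibroblast and stroma markers was 12040 to 12363 in Zfx-flox and 22470 to 23636 in Zfx-null, with 4 of 6 higher, among them Col1a1, Col3a1 and Lox. That of 7 extraembryonic endoderm markers was 8679 to 8755 and 12200 to 13352, with Dab2 and Sparc higher of 6 tested. In HSC the sum of the stroma list was 232 to 249 in Zfx-flox and 283 to 335 in Zfx-cko. Of its 4 tested genes 1 was higher, Thy1. The sum of the endoderm list was 533 to 537 and 1096 to 1237, with 3 of 5 tested genes higher. Afp gave most of it (means 396 and 937), and Gata4 and Gata6 did not pass. The part of these marker differences in the changes of the members was not tested.

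**Figure D2:**
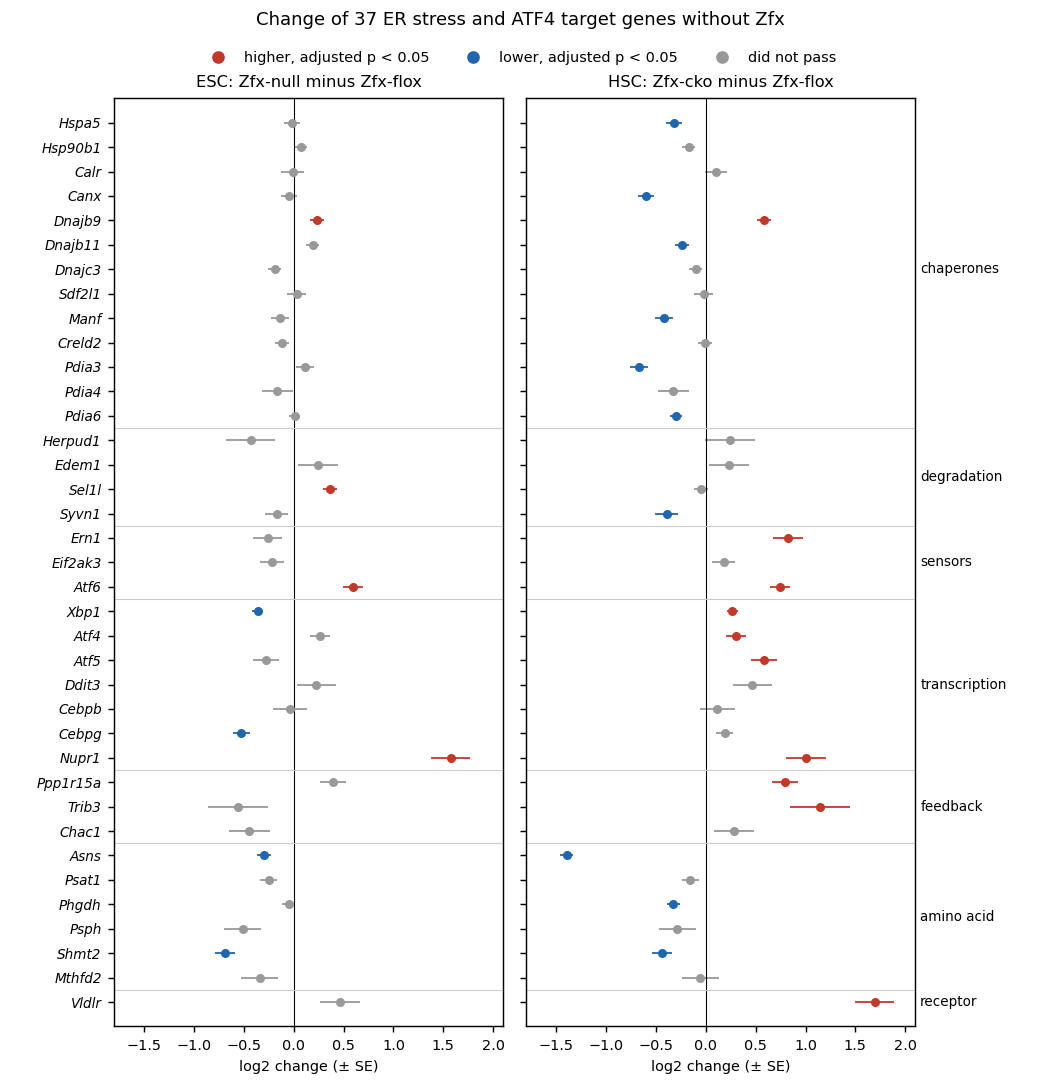
Log2 change (x axis, point ± SE from limma) of each of the 37 genes in ESC (left) and HSC (right), grouped by role. In HSC the chaperones and the amino acid enzymes that passed lie left of 0, apart from Dnajb9, and the sensors, transcription factors and feedback genes that passed lie right of 0.

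Of the 13 ER chaperones and folding enzymes, 1 rose and 6 fell in HSC (median log2 change -0.24), beside 22.6% and 19.8% of all genes. In ESC 1 rose and none of the others passed (median -0.01), beside 15.7% higher and 14.9% lower over all genes. Without a variance trend 2 of the 13 fell in HSC, Canx and Pdia3, beside 1807 of all 12533 genes. With the mean of all probe sets of a gene 4 did, beside 2028 of 11629 genes. Pdia3, a disulfide isomerase that works with the calnexin cycle, read 234 and 221 on the HSC Zfx-flox arrays against 147 and 129 on the Zfx-cko arrays. These did not overlap, and the change was -0.67 ± 0.09 (SE; adjusted p = 0.000423). In ESC the same probe set read 6594 and 7490.0 for Zfx-flox against 7309 and 7866 for Zfx-null, which overlapped (0.11, adjusted p = 0.401).

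Canx, the membrane-bound lectin chaperone calnexin, read 7265 and 7627 on the HSC Zfx-flox arrays against 4971 and 4857 on the Zfx-cko arrays. Both Zfx-cko arrays were lower, and Canx fell by 0.60 ± 0.08 (SE, log2; adjusted p = 0.000429). In ESC, Canx read 6889 and 7774 against 6693 and 7519, and the groups overlapped. Its soluble counterpart Calr did not pass in either cell type: it read 5240.1 and 5722 on the HSC Zfx-flox arrays against 5870.2 and 5888 on the Zfx-cko arrays (0.10, adjusted p = 0.519).

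Hspa5, the ER Hsp70 chaperone BiP that holds the 3 sensors inactive, read 6158 and 6659 on the HSC Zfx-flox arrays against 5106 and 5146 on the Zfx-cko arrays. The groups did not overlap (-0.32 ± 0.08 SE, adjusted p = 0.0139), but the call was lost without Zfx-flox replicate 2 or either Zfx-cko array (adjusted p = 0.0649 to 0.103). Its 2 other probe sets went opposite ways in HSC, at -0.81 and 0.30, so the direction for Hspa5 is uncertain. The ESC signals were 6943 and 7688 for Zfx-flox against 6739 and 7740.3 for Zfx-null, which overlapped (-0.02, adjusted p = 0.907).

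Manf, a secreted ER stress-induced factor, read 2086 and 2133 on the HSC Zfx-flox arrays against 1588 and 1554 on the Zfx-cko arrays (-0.42 ± 0.09 SE, adjusted p = 0.00593). Both Zfx-cko arrays were lower. In ESC, Manf read 3402 and 3353 against 3412 and 2759, and passed there only without Zfx-null replicate 1 (-0.29, adjusted p = 0.0179). The disulfide isomerase Pdia6 read 1195 and 1276 on the HSC Zfx-flox arrays against 999 and 1006 on the Zfx-cko arrays. It fell by 0.30 ± 0.06 (SE, log2, adjusted p = 0.00375). Its other probe set had the other sign without passing (0.25, adjusted p = 0.738 over probe sets). With the mean of all probe sets Pdia6 changed by -0.02 (adjusted p = 0.949).

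Both J-domain co-chaperones of BiP that passed differed in direction. Dnajb9 (ERdj4) read 1092 and 1202 on the HSC Zfx-flox arrays against 1714 and 1723 on the Zfx-cko arrays. It was the only 1 of the 13 that rose in HSC (0.58 ± 0.07 SE, adjusted p = 0.000268). In ESC, Dnajb9 read 943 and 893 for Zfx-flox against 1051 and 1110.2 for Zfx-null (0.23 ± 0.07 SE, adjusted p = 0.0368). The groups did not overlap in either cell type, but the ESC call was lost without any 1 of the 4 ESC arrays or either HSC Zfx-cko array (adjusted p = 0.0596 to 0.150). Dnajb11 (ERdj3) read 708 and 696 on the HSC Zfx-flox arrays against 574 and 612 on the Zfx-cko arrays (-0.24 ± 0.07 SE, adjusted p = 0.024). That call was lost without either Zfx-flox array or Zfx-cko replicate 1 (adjusted p = 0.0759 to 0.134), and in ESC the change was 0.19 (adjusted p = 0.0773).

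The others did not pass in either cell type. The ER Hsp90 Hsp90b1 read 2976 and 2896 on the HSC Zfx-flox arrays against 2709.6 and 2499.8 on the Zfx-cko arrays (-0.17, adjusted p = 0.0572), and its other probe set rose (0.49, adjusted p = 0.00274 over probe sets). Changes of Dnajc3, the PERK inhibitor P58IPK, were -0.19 in ESC (adjusted p = 0.0609) and -0.10 in HSC. Sdf2l1 and Creld2 lay between -0.12 and 0.03 in both cell types. The isomerase Pdia4 read 152 and 123 on the HSC Zfx-flox arrays against 89.5 and 125 on the Zfx-cko arrays, and passed in HSC only without Zfx-cko replicate 2 (-0.54, adjusted p = 0.0234).

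The 8 members with an ER stress element in the promoter window were Hspa5, Hsp90b1, Calr, Canx, Dnajc3, Creld2, Pdia6 and Syvn1. In HSC 4 of the 8 were called lower and 4 did not pass (median log2 change -0.24), beside 19.8% lower over all genes, and in ESC none passed (median -0.03), beside 30.6% called. Leaving out Hspa5, whose direction is uncertain, 3 of 7 were lower in HSC (median -0.17). With the mean of all probe sets of a gene, 3 of the 8 were lower, Canx, Hspa5 and Syvn1 (median -0.11), beside 2028 of 11629 genes. Pdia6 then changed by -0.02 and did not pass. Without a variance trend Canx alone of the 8 passed, beside 1807 of all 12533 genes lower. The 6 with TGATGNAA had 3 higher, 1 lower and 2 not past in HSC, and 1 higher, 1 lower and 4 not past in ESC. Over all genes 22.6% were higher and 19.8% lower in HSC, and 15.7% and 14.9% in ESC. These counts describe the members and were not tested.

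Of the 4 genes of ER-associated degradation, which sends misfolded proteins to the cytosol, 1 rose in ESC and 1 fell in HSC. Over all genes 15.7% rose in ESC and 19.8% fell in HSC. Sel1l, the adaptor of the HRD1 ubiquitin ligase, read 1092 and 1043 in ESC Zfx-flox and 1448 and 1314 in ESC Zfx-null. Both Zfx-null arrays were higher (0.37 ± 0.07 SE, adjusted p = 0.00556). In HSC it read 686 and 677 against 644 and 672 (-0.05, adjusted p = 0.629), while another Sel1l probe set rose by 1.19 (adjusted p = 0.000888 over probe sets). Syvn1, which encodes HRD1 itself, read 304 and 309 on the HSC Zfx-flox arrays against 225 and 235 on the Zfx-cko arrays. It fell by 0.39 ± 0.12 (SE, log2; adjusted p = 0.0267), a call lost without any 1 of the 4 HSC arrays (adjusted p = 0.0758 to 0.117). In ESC it passed only without Zfx-flox replicate 1 (-0.36, adjusted p = 0.0342).

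Herpud1, a membrane protein of the same complex, spread widely in ESC, at 345 and 209 for Zfx-flox against 249 and 152 for Zfx-null. In HSC it read 331 and 313 against 384 and 384 (0.24, adjusted p = 0.484), and its other probe set rose (0.58, adjusted p = 0.00235 over probe sets). Edem1, a lectin-like factor that extracts glycoproteins from folding, overlapped between groups in both cell types, with changes of 0.24 in ESC and 0.23 in HSC.

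Of the 3 sensors, Atf6 rose in both cell types and Ern1 in HSC, while Eif2ak3 did not pass in either. Over all genes 22.6% rose in HSC and 15.7% in ESC. Atf6 read 329.7 and 329.7 in ESC Zfx-flox and 528 and 482 in ESC Zfx-null, and 153 and 131 on the HSC Zfx-flox and 243 and 252 on the Zfx-cko arrays. The groups did not overlap in either cell type. The changes were 0.59 ± 0.10 in ESC (SE; adjusted p = 0.0033) and 0.75 ± 0.10 in HSC (adjusted p = 0.00055). Ern1 read 489.9 and 346 on the HSC Zfx-flox arrays against 732 and 745 on the Zfx-cko arrays (0.82 ± 0.15 SE, adjusted p = 0.00236). Both Zfx-cko arrays lay above both Zfx-flox arrays, although the latter spread more. In ESC, Ern1 read 261 and 294 against 220.4 and 237 (-0.26, adjusted p = 0.225). Eif2ak3 (PERK) read 355 and 408 on the HSC Zfx-flox arrays against 387 and 482 on the Zfx-cko arrays, which overlapped (0.18, adjusted p = 0.283).

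Of the 7 transcription regulators, 4 rose and none fell in HSC (median 0.30), beside 22.6% and 19.8% of all genes. In ESC 1 rose and 2 fell (median -0.04), beside 15.7% and 14.9%. With each array centred on its median, Xbp1 and Atf4 no longer passed in HSC, leaving 2 higher, beside 2351 of all 12533 genes. Xbp1 was the only 1 of the 37 that passed in opposite directions. It read 4285 and 4387 in ESC Zfx-flox and 3392 and 3355 in ESC Zfx-null, and fell there by 0.36 ± 0.06 (SE, log2; adjusted p = 0.00202). In HSC it read 1671 and 1784 on the Zfx-flox arrays against 2103 and 2051 on the Zfx-cko arrays, and rose by 0.26 ± 0.06 (SE; adjusted p = 0.00548). The groups did not overlap in either cell type, and another Xbp1 probe set passed the same way in both (-0.42 and 0.45). A further probe set passed in ESC (-0.50) but not in HSC (0.14, adjusted p = 0.26 over probe sets). The remaining Xbp1 probe set passed in neither (-0.15 in ESC and -0.01 in HSC).

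Nupr1 read 108 and 136 in ESC Zfx-flox and 401 and 375 in ESC Zfx-null. Both Zfx-null arrays were clear of the Zfx-flox arrays (1.57 ± 0.20 SE, adjusted p = 0.000752). In HSC it read 33.0 and 21.5 on the Zfx-flox arrays against 76.1 and 61.3 on the Zfx-cko arrays, close to the pseudocount (1.01 ± 0.20 SE, adjusted p = 0.0037). Its other probe set showed the ESC change (1.59) but not the HSC one (0.21, adjusted p = 0.481 over probe sets).

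Atf4, the central factor of the integrated stress response, read 1119 and 1155 on the HSC Zfx-flox arrays against 1407 and 1403 on the Zfx-cko arrays. All Zfx-cko values lay above those of Zfx-flox (0.30 ± 0.10 SE, adjusted p = 0.0389), but the call was lost without any 1 of the 4 HSC arrays or either ESC Zfx-flox array (adjusted p = 0.0555 to 0.151). In ESC, Atf4 read 1102 and 1130.1 against 1192 and 1504 (0.26, adjusted p = 0.0841), and passed without Zfx-null replicate 1 (0.43, adjusted p = 0.0062). Atf5, a related factor under ATF4 control, read 70.5 and 85.2 on the HSC Zfx-flox arrays against 122 and 124 on the Zfx-cko arrays. It rose by 0.58 ± 0.13 (SE, log2; adjusted p = 0.00709), and in ESC it read 280.5 and 251 against 215 and 217 (-0.28, adjusted p = 0.142).

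Cebpg, a dimer partner of ATF4, read 245 and 267 in ESC Zfx-flox and 169 and 178 in ESC Zfx-null. Both Zfx-null arrays were lower (-0.53 ± 0.09 SE, adjusted p = 0.00245), and in HSC the change was 0.19 (adjusted p = 0.115). Ddit3, the death-linked factor CHOP, read 150.5 and 99.3 on the HSC Zfx-flox arrays against 181 and 169 on the Zfx-cko arrays (0.47, adjusted p = 0.0897). It passed in HSC without Zfx-flox replicate 1 (0.73, adjusted p = 0.022), and its other probe set rose (1.42, adjusted p = 0.00438 over probe sets). Cebpb overlapped between groups in both cell types, with changes of -0.04 in ESC and 0.11 in HSC.

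Of the 3 feedback and death-linked ATF4 targets, 2 rose in HSC, beside 22.6% of all genes, and none passed in ESC, beside 30.6% called. Ppp1r15a, the GADD34 subunit that directs eIF2 dephosphorylation, read 120.3 and 107 on the HSC Zfx-flox arrays against 201 and 215 on the Zfx-cko arrays. Both Zfx-cko arrays were higher (0.80 ± 0.13 SE, adjusted p = 0.00139). In ESC, Ppp1r15a read 301 and 371 against 475 and 413 (0.39, adjusted p = 0.0524), and passed without Zfx-flox replicate 2 (0.54, adjusted p = 0.0347). Trib3, a pseudokinase that inhibits ATF4 and CHOP activity, read 56.4 and 78.4 on the HSC Zfx-flox arrays against 114 and 234 on the Zfx-cko arrays. Zfx-flox and Zfx-cko did not overlap, but the Zfx-cko arrays stood far apart from each other. Its change of 1.14 ± 0.30 (SE; adjusted p = 0.0153) was 0.66 without Zfx-cko replicate 2 (adjusted p = 0.0874) and did not pass without Zfx-flox replicate 1 (adjusted p = 0.0961). The other Trib3 probe set did not pass (0.26, adjusted p = 0.468 over probe sets). Chac1, a glutathione-degrading enzyme, read 45.7 and 31.6 against 50.2 and 48.5 in HSC (0.28, adjusted p = 0.314) and 132 and 127 against 98.0 and 85.3 in ESC (-0.44, adjusted p = 0.136).

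Of the 6 amino acid and one-carbon enzymes, 3 fell in HSC and 2 in ESC, beside 19.8% and 14.9% of all genes. All 6 log2 changes were negative in both cell types (medians -0.31 in HSC and -0.32 in ESC) under the deposited and 3 other scalings. Over all alternatives the ESC change of Phgdh ranged from -0.12 to 0.01, and its other probe sets gave 0.04, -0.06 and 0.07 in ESC. Asns, asparagine synthetase, read 1687 and 1699.5 on the HSC Zfx-flox arrays against 626 and 642 on the Zfx-cko arrays. Both Zfx-cko arrays were lower, and the fold was 0.38 (-1.40 ± 0.07 SE on the log2 scale, adjusted p = 3.46e-06). In ESC it read 1417 and 1511 for Zfx-flox against 1137 and 1242 for Zfx-null. It fell there by 0.30 ± 0.07 (SE, log2; adjusted p = 0.0117), a call lost without Zfx-flox replicate 2 (adjusted p = 0.0635) or Zfx-null replicate 1 (adjusted p = 0.0624).

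Shmt2, the mitochondrial serine hydroxymethyltransferase, read 1062 and 971 in ESC Zfx-flox and 690.1 and 565 in ESC Zfx-null (-0.69 ± 0.10 SE, adjusted p = 0.00137). In HSC it read 1358 and 1467 on the Zfx-flox arrays against 1044 and 1029 on the Zfx-cko arrays (-0.44 ± 0.10 SE, adjusted p = 0.00719). The groups did not overlap in either cell type, and the HSC call was lost without Zfx-flox replicate 2 (adjusted p = 0.0557). Phgdh, the first enzyme of serine synthesis, read 3834 and 3828 on the HSC Zfx-flox arrays against 3049.8 and 3044 on the Zfx-cko arrays. It fell by 0.33 ± 0.06 (SE, log2; adjusted p = 0.00368), and in ESC its arrays overlapped (-0.05, adjusted p = 0.605).

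The next enzymes of serine synthesis, Psat1 and Psph, did not pass. Psat1 read 6117 and 6342 on the HSC Zfx-flox arrays against 5594 and 5589.7 on the Zfx-cko arrays (-0.16, adjusted p = 0.19), while its other probe set fell by 0.64 (adjusted p = 0.000307 over probe sets). In ESC it changed by -0.25 (adjusted p = 0.0578) and passed without Zfx-null replicate 1 (-0.39, adjusted p = 0.00878). Psph read 386 and 480.0 in ESC Zfx-flox and 249 and 353 in ESC Zfx-null (-0.51, adjusted p = 0.0701). Mthfd2, a mitochondrial folate enzyme, read 481 and 588 against 329.7 and 525, which overlapped. Both passed in ESC without Zfx-null replicate 2, at -0.76 (adjusted p = 0.0285) and -0.67 (adjusted p = 0.0091).

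Vldlr, the very low density lipoprotein receptor and an ATF4 target, had the highest HSC change of the 37 by the probe sets used. It read 74.0 and 73.7 on the Zfx-flox arrays against 254 and 289 on the Zfx-cko arrays, a change of 1.69 ± 0.20 (SE, log2; adjusted p = 0.000222). A second probe set also rose (0.83, adjusted p = 0.0332 over probe sets), and another did not pass (0.43, adjusted p = 0.375 over probe sets). Averaged over its probe sets, Vldlr changed by 0.73 (adjusted p = 0.0247), below that of Ddit3 (0.94). In ESC it read 32.2 and 50.1 against 60.8 and 61.4, near the pseudocount (0.46, adjusted p = 0.116), and passed without Zfx-flox replicate 2 (0.70, adjusted p = 0.041).

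**Figure D3:**
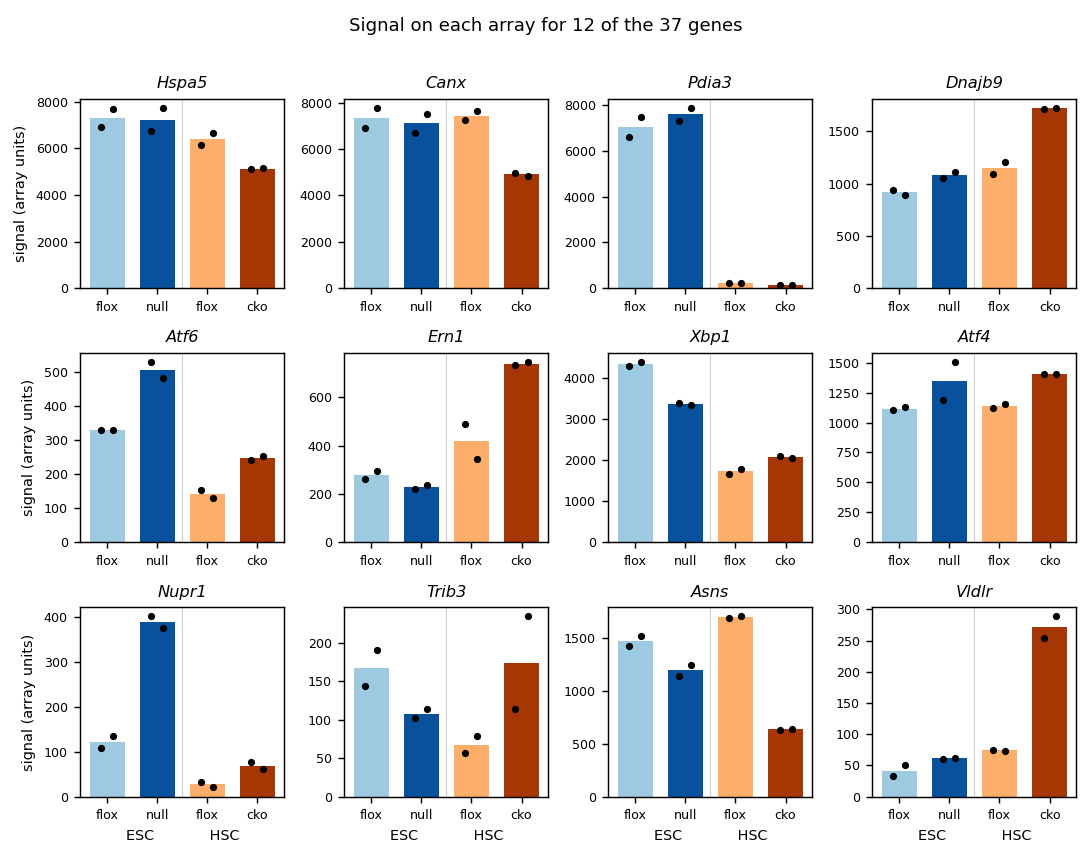
Deposited signal in array units (y axis, starting at 0) on each array (points) and its group mean (bars) for 12 of the 37 genes; each panel has its own scale and is not to be compared with another. The Zfx-cko arrays of Asns, at 626 and 642, lie below those of Zfx-flox, at 1687 and 1699.5, and those of Trib3 stand apart from each other, at 114 and 234.

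Agreement between probe sets of the same gene limits several of these values. Of the 20 members called in HSC, 15 had 24 other tested probe sets: 11 passed in the same direction, 10 had the same sign without passing, 2 had the other sign without passing and 1, for Hspa5, passed the other way. Of the 8 members called in ESC, 7 had 15 others: 5 passed in the same direction, 7 had the same sign and 3 the other sign without passing. Probe sets of Ddit3, Herpud1, Hsp90b1, Psat1 and Sel1l passed in HSC where the one used did not, and so did 1 of Hspa5 in ESC. Canx (-0.91 and -0.54), Asns (-1.53), Ern1 (1.21) and Syvn1 (-0.42) had other probe sets that passed the same way in HSC. With the mean of all probe sets of a gene, Atf6, Sel1l and Shmt2 did not pass in ESC (adjusted p = 0.0721 to 0.339), nor did Atf4, Atf6, Ern1, Pdia3, Pdia6 and Shmt2 in HSC (adjusted p = 0.0503 to 0.949).

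**Figure D4:**
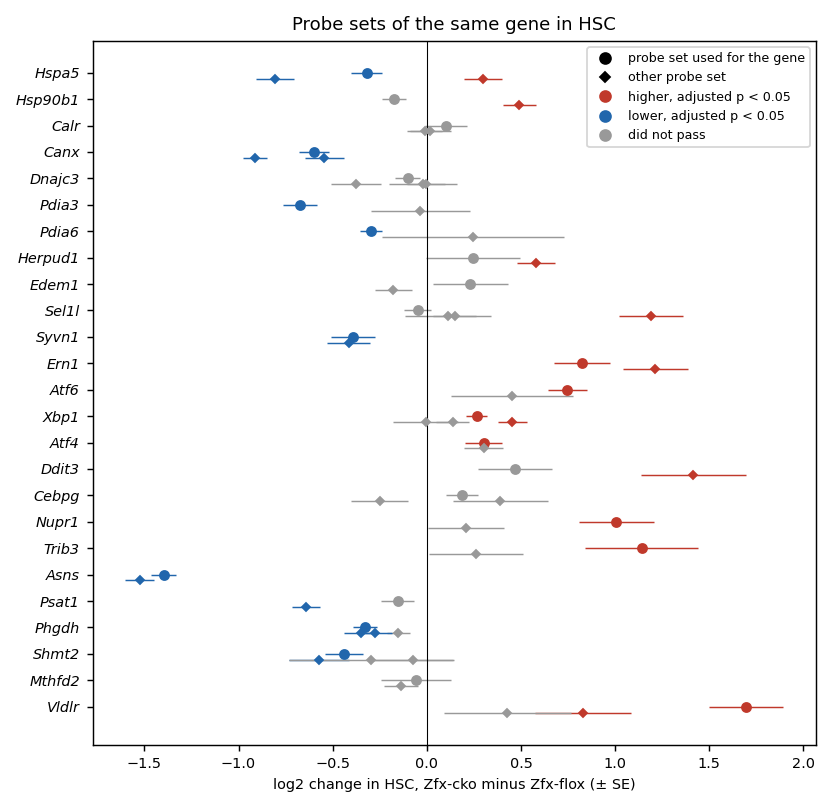
Log2 change in HSC (x axis, point ± SE) of the 65 tested probe sets of the 25 members with more than 1, with circles for the one used and diamonds for the others, coloured by p-values adjusted over all probe sets. The probe sets of Hspa5 lie on both sides of 0, and those of Canx and Asns lie on 1 side.

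The change without Zfx differed between the cell types for 14 of the 37 genes, by the HSC minus ESC contrast in limma. In 7 the HSC change was the higher and in 7 the lower, 37.8% of the members beside 35.3% of the 11175 genes tested in both cell types (17.6% and 17.7%). Asns (-1.10 ± 0.10 SE, adjusted p = 0.000106) and Xbp1 (0.63 ± 0.08 SE, adjusted p = 0.000648) had the smallest adjusted p. Among the regulators and sensors, the HSC change was higher for Ern1 (1.09), Atf5 (0.86) and Cebpg (0.72), and among the feedback genes for Trib3 (1.70). It was lower for the chaperones Pdia3 (-0.78), Canx (-0.55), Dnajb11 (-0.43) and Pdia6 (-0.31), for Sel1l (-0.42) and for Phgdh (-0.28). Dnajb9, which rose in both, rose more in HSC (0.35 ± 0.10 SE, adjusted p = 0.0263), and the difference for Vldlr was 1.23 ± 0.28 (SE; adjusted p = 0.0101). Without a variance trend the difference no longer passed for Canx, Dnajb11, Dnajb9, Pdia6, Phgdh and Sel1l (adjusted p = 0.0662 to 0.236), and with the mean of all probe sets for Ern1, Pdia3, Pdia6 and Sel1l (adjusted p = 0.0803 to 0.722).

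The call of the difference for Dnajb9 was lost without ESC Zfx-flox replicate 1, ESC Zfx-null replicate 1, HSC Zfx-flox replicate 1 or either HSC Zfx-cko array. That for Pdia6 was lost without ESC Zfx-flox replicate 2, ESC Zfx-null replicate 2, HSC Zfx-flox replicate 2 or either HSC Zfx-cko array, and that for Phgdh without ESC Zfx-flox replicate 2, ESC Zfx-null replicate 1 or any of the HSC arrays (adjusted p = 0.0501 to 0.117 over these). That for Trib3 was lost without ESC Zfx-flox replicate 2 (adjusted p = 0.0561) or HSC Zfx-flox replicate 1 (adjusted p = 0.0559). The difference also passed for Herpud1 (1.02, adjusted p = 0.0467) and Syvn1 (-0.41, adjusted p = 0.043) without ESC Zfx-flox replicate 2, and for Hspa5 (-0.40, adjusted p = 0.0302) and Shmt2 (0.39, adjusted p = 0.0394) without ESC Zfx-null replicate 1. It passed for Manf (-0.44, adjusted p = 0.00726) and Mthfd2 (0.61, adjusted p = 0.0229) without ESC Zfx-null replicate 2, and for Eif2ak3 (0.55, adjusted p = 0.0417) without HSC Zfx-cko replicate 1. Calls in the same direction in both cell types were made for 5 members, Nupr1, Atf6 and Dnajb9 (higher) and Asns and Shmt2 (lower). That is 13.5% of the members, near the 13.3% of all genes tested in both, and opposite calls were made for 1 (2.7%) beside 5.82%. The difference did not pass for Nupr1 (-0.57 ± 0.28 SE, adjusted p = 0.156), Atf6 (0.15 ± 0.15 SE, adjusted p = 0.463), Shmt2 (0.25 ± 0.14 SE, adjusted p = 0.208) or Atf4 (0.04 ± 0.14 SE, adjusted p = 0.846).

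**Figure D5:**
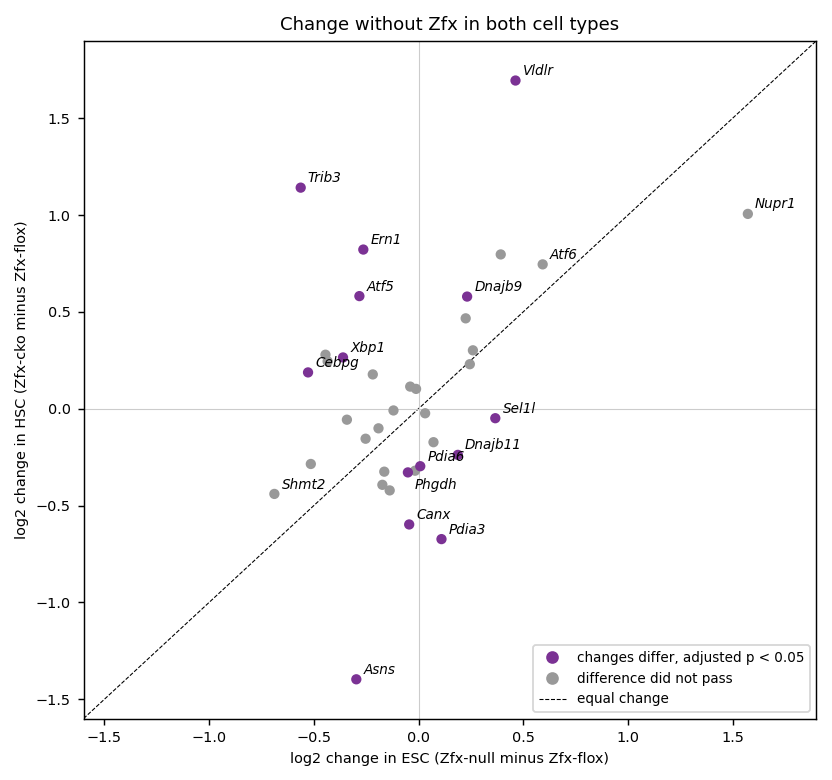
Log2 change in ESC (x axis) against log2 change in HSC (y axis) of the 37 genes, with the dashed line for an equal change; purple points differ between cell types (adjusted p under 0.05). Asns and Canx lie below the line and Trib3, Ern1 and Vldlr above it, while Nupr1, Atf6 and Shmt2 have the same sign on both axes.

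Of 82 further genes of the pathways, on 4 lists, 76 were on the array. In ESC 10 of 74 tested rose and 18 fell, and in HSC 15 of 72 rose and 20 fell, 37.8% and 48.6% of them beside 30.6% and 42.4% of all genes. Among 17 further ER folding and oxidation genes, 2 rose and 4 fell in ESC and 2 rose and 3 fell in HSC. These are 35.3% and 29.4% of them, beside the same 30.6% and 42.4%. The ER oxidase Ero1a fell in both: it read 1419.5 and 1340.5 in ESC Zfx-flox and 861 and 796 in ESC Zfx-null (-0.73 ± 0.07 SE, adjusted p = 0.000233), and 791 and 818 against 493 and 519 in HSC (-0.65 ± 0.07 SE, adjusted p = 0.000153). The isomerase Pdia5 rose in both (0.70 and 0.34). The paralog Ero1b rose in HSC (0.64), where Erp29 fell (-0.64).

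Among 15 further genes of degradation and ER export, 2 rose and 1 fell in ESC and 2 rose and 4 fell in HSC. These are 20% and 40% of them, beside 30.6% and 42.4% of all genes. The COPII coat gene Sec24d rose in both (0.79 and 0.30), and the translocon gene Sec62 rose in HSC (0.40). The channel genes Derl1 and Derl2 fell in HSC (-0.38 and -0.32), and their relative Derl3 fell in ESC (-0.78). Of 12 tested genes of unfolded protein response signalling, 3 rose and 4 fell in ESC, and 4 rose and 1 fell in HSC. These are 58.3% and 41.7% of the 12, beside 30.6% and 42.4% of all genes. The transcription factor Creb3l2, a relative of ATF6, moved in opposite directions. It read 117 and 126 in ESC Zfx-flox and 253 and 244 in ESC Zfx-null, and 315 and 248 on the HSC Zfx-flox and 176 and 134 on the Zfx-cko arrays (difference -1.76 ± 0.22 SE, adjusted p = 0.000634). The ER membrane protein gene Wfs1 and Crebrf did the reverse, at -0.49 and -0.41 in ESC and 1.02 and 1.22 in HSC.

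Of the genes of ATF4 and the integrated stress response, 3 rose and 9 fell of 30 tested in ESC, 40% beside 30.6% of all genes. In HSC 7 rose and 12 fell of 28, 67.9% beside 42.4% of all genes. The AP-1 related factor Jdp2 rose in ESC (1.58), where the transsulfuration enzyme Cth (-0.88) and the amino acid transporters Slc1a5 (-0.86) and Slc7a3 (-0.79) fell. In HSC the folate enzyme Mthfd1 read 6616 and 6895 on the Zfx-flox arrays against 2824 and 2622 on the Zfx-cko arrays (-1.31 ± 0.07 SE, adjusted p = 4.87e-06). The leucine transporter subunit Slc7a5 read 1633 and 1688 against 623 and 732 there (-1.28 ± 0.12 SE, adjusted p = 7.38e-05). The antioxidant factor Nfe2l2 (-1.28) and the eIF2 kinase Eif2ak4, which senses uncharged tRNA (-1.10), also fell in HSC.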

How the data were processed

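Probe set intensities of the 8 arrays were deposited by the authors on a linear scale, with GCOS 1.4 named in the submitters' processing notes. No source used here gives how probes were summarised. Columns shared a trimmed mean of 250, and this scaling was kept. A pseudocount of 14.2, the 25th percentile of all values, was added before log2, which understates changes of dim genes. Control probe sets (64) were dropped. Of 45101 probe sets, 34945 had 1 gene symbol in the platform annotation, 932 several and 9160 none. A gene was tested where its mean over the 4 arrays of the cell type reached the 40th percentile.

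A model of the 4 group means was fitted in R 4.3.3 by limma 3.58.1, its eBayes step using a variance trend, and p-values were adjusted over all genes tested (Benjamini-Hochberg, threshold 0.05). P-values of single probe sets were adjusted over all probe sets tested. The fit was tested on simulated data. The same replicate number in both groups did not pair samples by any label, so no block was used. All members could be named, and of each other list, per comparison, up to 4 called genes out of those with the largest change. Some marker genes were named after their values were seen. The members, lists and tests were chosen with earlier results of these data known. Alternatives changed the pseudocount, scaling, filter, probe set, variance model, arrays fitted and block, or left out 1 array.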

Additional observations from a re-analysis of the deposited data

Results flagged for a closer look

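For 14 of the 37 genes (37.8%, near the 35.3% of all 11175 genes tested) the change without Zfx differed between HSC and ESC, tested as the HSC minus ESC contrast in limma. The HSC change was the higher for Trib3 (1.70), Vldlr (1.23), Ern1 (1.09), Atf5 (0.86), Cebpg (0.72), Xbp1 (0.63) and Dnajb9 (0.35), as differences of log2 changes. It was the lower for Asns (-1.10), Pdia3 (-0.78), Canx (-0.55), Dnajb11 (-0.43), Sel1l (-0.42), Pdia6 (-0.31) and Phgdh (-0.28). The cell types also differed in amplification rounds and in how Zfx was deleted, which cannot be told apart from cell type. With 2 arrays per group, no group was large enough for a test of single outlying arrays.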

How the results depend on the processing

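Directions of called genes held under every alternative run in ESC and HSC. The difference between cell types reversed for Pdia6 (0.18) and Sel1l (0.16) with the mean of all probe sets. Calls held under every alternative in which the gene was tested for 2 of 8 genes in ESC (Nupr1 and Cebpg), 7 of 20 in HSC (Asns, Atf5, Canx, Dnajb9, Nupr1, Ppp1r15a and Vldlr) and 5 of 14 for the difference (Asns, Atf5, Cebpg, Vldlr and Xbp1); Nupr1 in HSC was tested in 20 of 21 and the Vldlr difference in 18 of 20. Without a variance trend, 2 members rose and 2 fell in ESC, beside 1392 and 1032 of all 12676 genes. In HSC 8 rose and 4 fell, beside 2349 and 1807 of 12533 genes. For the difference, 6 members had a higher and 2 a lower HSC change, beside 1227 and 1102 of 11175 genes. Over all genes 2424 passed in ESC, 4156 in HSC and 2329 for the difference. The cause was not tested. With the replicate number as a block, 5 members rose and 9 fell in ESC, beside 2290 and 2297 of all 12676 genes. Same-numbered arrays of a cell type deviated together at r = 0.346 in ESC and 0.0865 in HSC. Leaving out 1 array gave 3 to 5 higher and 3 to 6 lower in ESC, 8 to 10 and 6 to 10 in HSC, and 5 to 8 and 5 to 7 for the difference; over all genes 2770 to 3637, 4098 to 5391 and 3064 to 3590 passed. Where this left 1 array in a group, it was assumed to vary like the others. Median centring gave 3 higher and 6 lower in ESC, beside 1763 and 2180 of all 12676 genes. In HSC it gave 8 and 12, beside 2351 and 3047 of 12533 genes, and moved the median of all genes from 0.03 to -0.06. Adjustment over all probe sets, chosen after seeing the data, changed no count of members. Dim genes such as Nupr1 in HSC and Vldlr in ESC are limited by signal near the pseudocount.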
